A study of Homo sapiens with 4 samples.

Results

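The enzymes described here carry out the late steps by which a prohormone becomes an active peptide. They are the glutaminyl cyclases QPCT and QPCTL, the carboxypeptidases CPE and CPD, the proprotein convertases PCSK1, PCSK2, PCSK5 and PCSK6, the amidating enzyme PAM and SCG5, the chaperone of the PCSK2 product. The members are every probe set that the array annotation assigns to exactly 1 of these 10 symbols, which gave 20 of the 54613 probe sets tested and covered 8 of the 10 genes. No probe set is listed for PCSK1 or PCSK2 in the annotation used here, so they have no value, and 2 further probe sets are listed for PCSK6 together with a second symbol. The genes were chosen by the log2 differences of QPCT and CPE between these same arrays, which were known to be large, and their relatives were added by function. The differences of these genes between the lines are therefore given as a description. Where calls are counted among them, the calls rest on the values that chose QPCT and CPE and are no evidence of their own. The arrays were GeneChip Human Genome U133 Plus 2.0, with total RNA as the starting material, 2 of 320IWR cells and 2 of COLO-320DM cells. COLO-320DM is a human colorectal cancer cell line that depends on Wnt/β-catenin signaling, and 320IWR is a subline resistant to tankyrase inhibitors, obtained by growing COLO-320DM continuously in IWR-1, an inhibitor of the poly(ADP-ribose) polymerases tankyrase-1 and -2. It is 1 subline, so features of the subline and of resistance cannot be told apart, and whether IWR-1 was present at harvest is not given in the sources used here. Nothing in the labels says that the replicates were separate cultures, so any p-value given below rests on the scatter between arrays alone, and that scatter may be technical.

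Peptide hormones and neuropeptides are made as large precursors that enter the secretory pathway. Convertases cut the precursor behind pairs of basic residues, a carboxypeptidase such as CPE trims the lysine or arginine left at the new C-terminus, PAM turns an exposed C-terminal glycine into an amide, and glutaminyl cyclases close an N-terminal glutamine or glutamate into pyroglutamate. Neuroendocrine cells hold PCSK1, PCSK2, CPE and PAM in dense-core granules together with granins, while CPD, PCSK5, PCSK6 and the convertase FURIN also act in cells without such granules. COLO-320DM is known as a colorectal line with neuroendocrine features.

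The arrays were alike in overall signal, with median intensities between 41.0 and 41.8. The replicates of each line correlated closely over the probe sets (Pearson's r = 0.991 for 320IWR and 0.990 for COLO-320DM, on log2 values), although probe sets are no independent replicates. Same-numbered arrays of different lines correlated almost as closely (Pearson's r = 0.987 for replicate 1 and 0.988 for replicate 2). Over all probe sets limma called 141 lower (0.258%) and 61 higher (0.112%) in 320IWR cells, where a call needs a 2-fold difference or more together with a p under 0.05 after Benjamini-Hochberg adjustment. Of 13 markers of colorectal epithelium, counted by the brightest probe set of each gene, 2 were called lower (the keratin genes KRT8 and KRT18) and 1 higher (KRT20), and each of these calls was lost when any single array was left out. KRT8 had intensities of 113 and 112 in 320IWR cells and 500 and 580 in COLO-320DM cells, whereas KRT20 had 199 and 160 in 320IWR cells and 49.5 and 54.6 in COLO-320DM cells. Without overlap, 5 of the 13 markers were lower and 2 higher, beside 17.5% and 21% of all genes by their brightest probe set, and 6 overlapped. Limma called 0.592% of all such genes. The median log2 fold change of the markers was 0.03, and nothing is read from these counts. Whether a difference in lineage has a part in the values of QPCT and CPE was not tested. CDX2, the intestinal transcription factor that defines this lineage, had intensities of 2723 and 2790 in 320IWR cells and 3403 and 3263 in COLO-320DM cells, while EPCAM, an epithelial surface protein, had 13.5 and 18.1 in 320IWR cells and 23.5 and 35.1 in COLO-320DM cells. Neither CDX2 nor EPCAM was called (limma adjusted p = 0.577 and 0.356). Of the 4 leukocyte, 6 fibroblast and 6 endothelium markers measured, limma called 0, with 0 at an unadjusted p under 0.05. The summed intensity of the fibroblast markers was 636 and 1531 in 320IWR cells and 659 and 1564 in COLO-320DM cells. COL3A1 alone carried this gap between replicates, and without it the other 5 summed to 358 and 344 in 320IWR cells and 367 and 371 in COLO-320DM cells. In such bulk RNA, fewer cells that express a gene and less of its RNA per cell cannot be told apart.

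The 250 bases before the annotated start site are shown for QPCT and CPE, which had the lowest log2 fold changes of these genes, and for their relatives QPCTL and CPD, which carry out the same reactions. They come from RefSeq (GRCh38.p14), all on the + strand, at chr2:37344380-37344629 for QPCT, chr4:165378758-165379007 for CPE, chr19:45692416-45692665 for QPCTL and chr17:30378677-30378926 for CPD (the first of its 2 start sites). All 10 genes were matched by symbol in that table. Capitals mark matches, on either strand, to 7 motifs: the cAMP response element TGACGTCA and its core TGACG, the TCF/LEF cores ATCAAAG and TTCAAAG, the E-box CACGTG, the GC box GGGCGG and the TATA box TATAAA. A match to TGACGTCA is also a match to TGACG.
QPCT: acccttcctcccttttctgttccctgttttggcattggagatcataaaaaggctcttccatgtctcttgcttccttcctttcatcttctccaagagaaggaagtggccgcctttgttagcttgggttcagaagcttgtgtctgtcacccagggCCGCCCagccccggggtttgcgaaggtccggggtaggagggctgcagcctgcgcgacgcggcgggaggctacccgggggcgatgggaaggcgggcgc
CPE: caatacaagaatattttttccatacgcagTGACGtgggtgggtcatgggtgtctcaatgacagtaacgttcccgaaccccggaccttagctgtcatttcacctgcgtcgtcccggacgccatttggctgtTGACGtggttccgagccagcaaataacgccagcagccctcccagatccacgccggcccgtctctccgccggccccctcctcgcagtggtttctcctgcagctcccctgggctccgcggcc
QPCTL: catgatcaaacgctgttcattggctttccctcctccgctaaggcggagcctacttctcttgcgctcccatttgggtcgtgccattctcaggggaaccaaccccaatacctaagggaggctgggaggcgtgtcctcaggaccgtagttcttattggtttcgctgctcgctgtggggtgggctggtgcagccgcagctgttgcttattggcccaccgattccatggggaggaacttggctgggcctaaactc
CPD: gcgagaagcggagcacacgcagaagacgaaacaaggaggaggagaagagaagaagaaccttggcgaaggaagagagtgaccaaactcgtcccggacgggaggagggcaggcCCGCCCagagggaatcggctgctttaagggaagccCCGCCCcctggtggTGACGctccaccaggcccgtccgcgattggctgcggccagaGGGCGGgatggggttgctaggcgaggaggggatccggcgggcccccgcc
The QPCT window held 1 GC box, at position -97 from the start. The CPE window held TGACG at positions -221 and -120, and no GC box. The QPCTL window held none of the 7 motifs, whereas the CPD window held 3 GC boxes (positions -139, -104 and -49) and 1 TGACG (position -90). Of 35116 upstream windows of this length, 42.6% hold a GC box and 21.2% hold TGACG. TGACGTCA stands in 1.65%, ATCAAAG in 2.26%, TTCAAAG in 3.8%, CACGTG in 6.34% and TATAAA in 10.7% of them, and none of these 5 motifs was found in the 4 windows. The CpG count was 14 for QPCT, 20 for CPE, 11 for QPCTL and 21 for CPD, against a median of 11 over all windows. The letters are a description of these windows and not of bound factors.

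QPCT, the secreted glutaminyl cyclase, was far lower in 320IWR cells, while the arrays of QPCTL, its Golgi-resident relative, overlapped between the lines. The single QPCT probe set had intensities of 13.6 and 19.3 in 320IWR cells and of 925 and 1149 in COLO-320DM cells. Both 320IWR arrays lay far below both COLO-320DM arrays, and the gap between the lines was much wider than the gap between replicates, which was 0.51 on the log2 scale in 320IWR cells and 0.31 in COLO-320DM cells. The log2 fold change was -6.00 (standard error 0.22), a 63.8-fold difference and the lowest value of all probe sets tested. The same-numbered arrays gave -6.09 and -5.90. How far the 320IWR values lie above background is unknown, since no detection calls were used here, so the size of the fold is uncertain. QPCTL had intensities of 31.7 and 41.8 in 320IWR cells and of 37.1 and 45.0 in COLO-320DM cells. The arrays of the lines overlapped, and the log2 fold change was -0.17 (standard error 0.19).

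**Figure D1:**
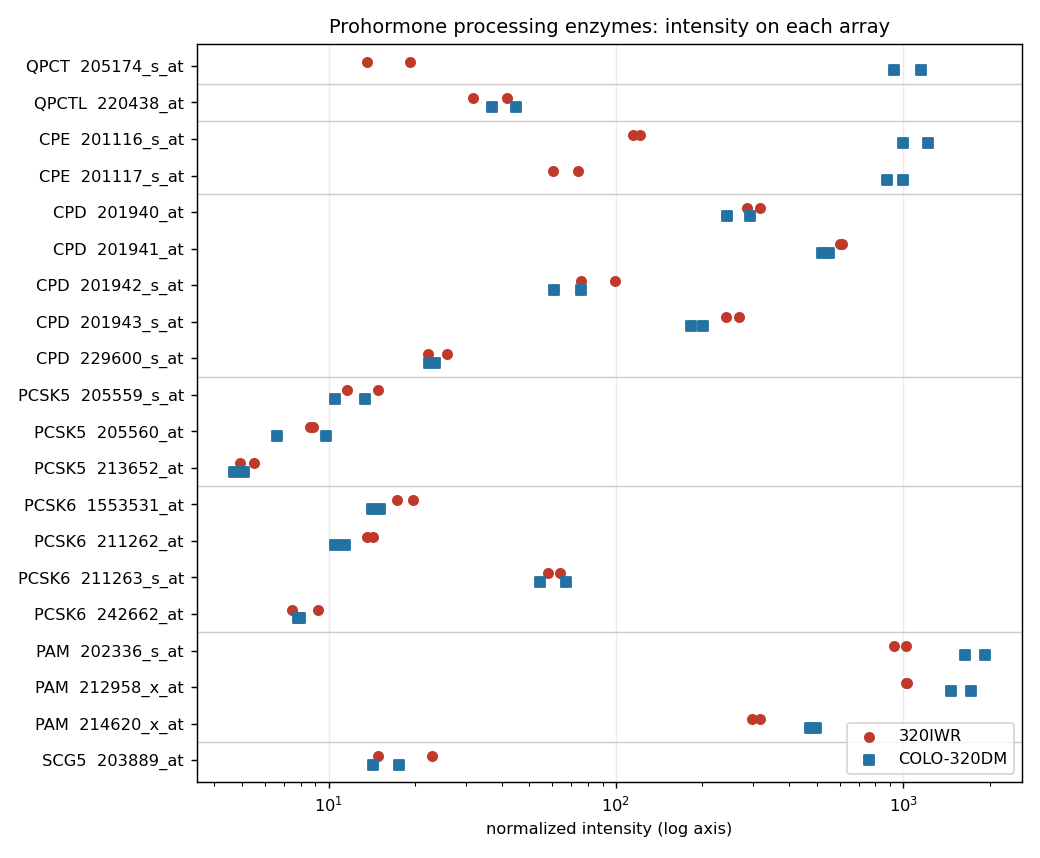
Normalized intensity (log axis) of each of the 20 probe sets on the 4 arrays, 1 point per array, with 320IWR as red circles and COLO-320DM as blue squares. The circles lie left of the squares for QPCT (13.6 and 19.3 against 925 and 1149), CPE and PAM, and among or close to the squares for the other genes.

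CPE, the carboxypeptidase of the regulated secretory pathway, was lower in 320IWR cells in both of its probe sets, and CPD, the carboxypeptidase of the trans-Golgi network, was not. In the brighter probe set, CPE had intensities of 114 and 121 in 320IWR cells and of 997 and 1222 in COLO-320DM cells. In the dimmer probe set, the CPE intensities were 60.5 and 74.0 in 320IWR cells and 879 and 1001 in COLO-320DM cells. In neither probe set did the arrays of the lines overlap, and the replicates of a line differed by at most 0.29 on the log2 scale. The CPE log2 fold changes, brighter probe set first, were -3.23 (standard error 0.15; 9.36-fold) and -3.81 (standard error 0.16; 14.0-fold), which were the 42nd and 20th lowest of all probe sets. Both probe sets kept an intensity of at least 60.5 on the 320IWR arrays.

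The 5 CPD probe sets all had positive log2 fold changes, between 0.06 and 0.41. The brightest one had intensities of 600 and 614 in 320IWR cells and of 551 and 523 in COLO-320DM cells, a log2 fold change of 0.18 (standard error 0.12). Both 320IWR arrays were above both COLO-320DM arrays in this probe set and in another, where CPD had 242 and 269 in 320IWR cells and 183 and 201 in COLO-320DM cells (log2 fold change 0.41, standard error 0.13). In the other 3 CPD probe sets the lines overlapped.

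PAM, which makes the C-terminal amide of many peptide hormones, was lower in 320IWR cells in all 3 of its probe sets, by less than 2-fold. The first probe set (suffix _s_at) had intensities of 1022 and 927 in 320IWR cells and of 1637 and 1923 in COLO-320DM cells, a log2 fold change of -0.87 (standard error 0.14; 1.82-fold). The brighter of the 2 others (suffix _x_at) had 1021 and 1031 in 320IWR cells and 1468 and 1719 in COLO-320DM cells, with a log2 fold change of -0.63 (standard error 0.14). The third had 317 and 298 in 320IWR cells and 475 and 495 in COLO-320DM cells, with a log2 fold change of -0.66 (standard error 0.12). In each of the 3 probe sets both 320IWR arrays were below both COLO-320DM arrays, and the gap was wider than that between replicates, which was at most 0.23 on the log2 scale. None of the 3 met either condition of a call.

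The convertases with a listed probe set, PCSK5 and PCSK6, were dim on all arrays in their member probe sets. In these probe sets they differed little between the lines. The 3 PCSK5 probe sets had intensities between 4.69 and 14.9 over the 4 arrays, with log2 fold changes between 0.09 and 0.15, and the lines overlapped in each. The brightest PCSK5 probe set had 14.9 and 11.6 in 320IWR cells and 13.4 and 10.5 in COLO-320DM cells. PCSK6, which like PCSK5 cuts growth factor precursors, had 4 probe sets with log2 fold changes between 0.01 and 0.35. Its brightest probe set had intensities of 58.0 and 64.0 in 320IWR cells and of 67.1 and 54.5 in COLO-320DM cells, so the lines overlapped. In 2 of the dimmer PCSK6 probe sets both 320IWR arrays were above both COLO-320DM arrays. One of them had 17.4 and 19.7 in 320IWR cells and 14.2 and 15.1 in COLO-320DM cells, and the other had 14.2 and 13.6 in 320IWR cells and 11.4 and 10.5 in COLO-320DM cells.

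The 2 probe sets that the annotation assigns to PCSK6 and LOC100507472 together are no members, since their signal cannot be given to 1 gene. Both were higher in 320IWR cells without overlap, and neither was called. The first had intensities of 31.8 and 54.1 in 320IWR cells and of 19.2 and 19.9 in COLO-320DM cells, a log2 fold change of 1.09 (standard error 0.27; limma adjusted p = 0.282). The second had 40.9 and 64.4 in 320IWR cells and 30.1 and 34.1 in COLO-320DM cells (log2 fold change 0.68, standard error 0.25; limma adjusted p = 0.482). The 320IWR replicates stood apart in both, by 0.77 and 0.65 on the log2 scale. SCG5, which keeps the convertase encoded by PCSK2 from becoming active too early, had intensities of 22.9 and 14.9 in 320IWR cells and of 17.6 and 14.3 in COLO-320DM cells. Its arrays overlapped between the lines, and its replicates in 320IWR cells differed by more (0.62 on the log2 scale) than the lines did (log2 fold change 0.22, standard error 0.25).

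Of the 20 probe sets, 3 were called lower (QPCT and both of CPE) and 0 were called higher. Over all probe sets 0.258% were called lower and 0.112% higher, and since the genes were chosen with this contrast in view nothing is read from the difference. Without overlap between the lines, 6 probe sets were lower (QPCT, CPE and PAM) and 4 were higher (CPD and PCSK6), and 10 overlapped. Over all probe sets, 16.1% were lower and 19.5% higher in this sense, or 35.6% in either direction. The median log2 fold change of the 20 probe sets was 0.08, beside 0.01 over all probe sets. QPCT and CPE lay far from 0, which follows from how they were chosen. PAM lay between -0.87 and -0.63. In their member probe sets, the other 5 genes had no log2 fold change over 0.41 in size. Without 320IWR replicate 1 or replicate 2, limma called 0 of all probe sets, with 3756 and 3502 at an unadjusted p under 0.05, while the log2 fold changes stayed at -5.74 and -6.25 for QPCT, -3.18 and -3.27 for the brighter CPE probe set, and -3.66 and -3.95 for the dimmer one.

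**Figure D2:**
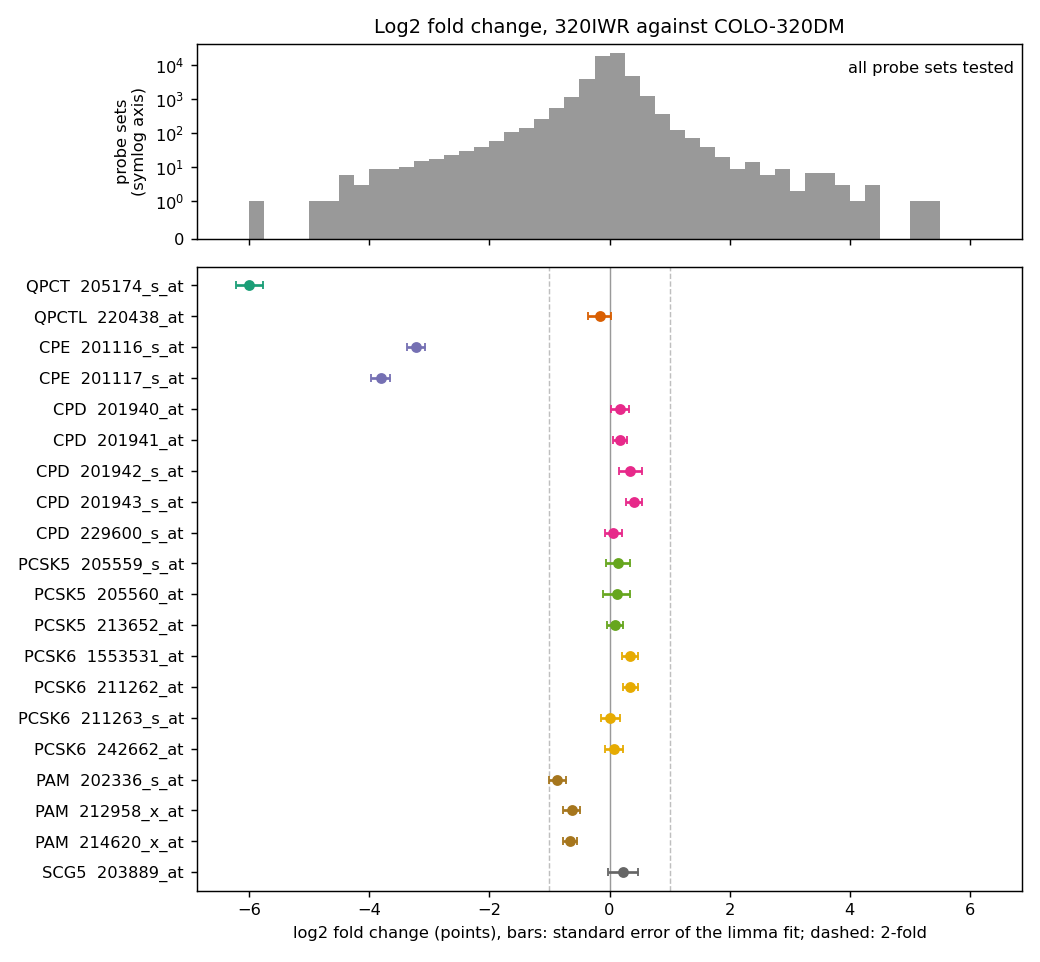
Top: number of probe sets in each bin of log2 fold change, 320IWR against COLO-320DM, over all 54613 probe sets (symlog axis). Bottom: log2 fold change of each of the 20 probe sets with the standard error of the limma fit, coloured by gene, with dashed lines at a 2-fold difference. QPCT (-6.00) and CPE (-3.23 and -3.81) lie beyond these lines, PAM lies between -0.87 and -0.63, and the others lie near 0.

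Among related genes of peptide processing and secretion, none was lower by 2-fold or more in its brightest probe set, and 3 were higher by that much (ADM, CADPS2 and MNX1). The 8 lists held 121 genes with at least 1 probe set of 1 symbol, each represented by its brightest one, and 12 genes with none listed. Limma called 0 of the 121 in the full fit, beside 0.592% called over all 19775 genes (0.399% lower and 0.192% higher). With the replicate number as a block, limma called ADM (adjusted p = 0.0403) and CADPS2 (adjusted p = 0.0362) higher, though the labels do not say what that number stands for. In a separate limma fit over genes, with a gene's probe sets averaged, 2 of the 121 were called higher, ADM (limma adjusted p = 0.0429) and MNX1 (limma adjusted p = 0.0453). Each of these genes has 1 probe set, so averaging left its log2 fold change as it was. That fit adjusted p over genes and not over all probe sets. Without overlap, 15 were lower and 28 higher, beside 17.5% and 21% of all genes. At an unadjusted p under 0.05 there were 15 (8 lower, 7 higher), or 12.4%, beside 12.3% of all genes. The median log2 fold change was 0.03, beside 0.02 over all genes, and the range was from -0.82 to 1.72. On every array 75 of the 121 genes had an intensity under 64, so many of them were dim.

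Among 4 other convertases, FURIN had intensities of 125 and 108 in 320IWR cells and of 130 and 114 in COLO-320DM cells. MBTPS1, the convertase that activates the sterol-sensing SREBP factors, had 370 and 412 in 320IWR cells and 594 and 634 in COLO-320DM cells, a log2 fold change of -0.65 that limma did not call (adjusted p = 0.19). The arrays did not overlap for MBTPS1, and the log2 fold change of its second probe set was -0.76. PCSK7 had a log2 fold change of -0.24 in its brightest probe set (limma adjusted p = 0.704) and 0.05 in the other. The 9 genes listed as other basic-residue carboxypeptidases or their relatives had log2 fold changes between -0.30 and 0.43. The outermost of them were CPB2, a plasma carboxypeptidase (0.43, limma adjusted p = 0.756), and CPM, a membrane-bound one (-0.30 in its brightest probe set, limma adjusted p = 0.851). The other 5 CPM probe sets ranged from -1.20 to 0.01. In both groups of genes none passed the test.

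Of 15 enzymes that modify or degrade peptides, 6 were lower and 3 higher without overlap, beside 17.5% and 21% of all genes. At a limma unadjusted p under 0.05 there were 7, beside 12.3% of all genes and 12.4% over the 8 lists together. None passed the test after adjustment. TPST2, a Golgi enzyme that puts sulfate on tyrosines of secreted proteins, had intensities of 460 and 464 in 320IWR cells and of 944 and 702 in COLO-320DM cells (log2 fold change -0.82, limma adjusted p = 0.222). ECE2, an endothelin-converting enzyme, had 471 and 503 in 320IWR cells and 227 and 382 in COLO-320DM cells (log2 fold change 0.73, limma adjusted p = 0.495), with 0.13 and 0.07 in its dimmer probe sets. The COLO-320DM arrays of TPST2 and ECE2 differed from each other by more than the 320IWR arrays did.

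The granins, acidic proteins that pack dense-core granules, were dim in both lines. CHGA had intensities of 17.5 and 20.9 in 320IWR cells and of 14.4 and 16.2 in COLO-320DM cells, and CHGB had 39.5 and 62.3 in 320IWR cells and 42.2 and 46.8 in COLO-320DM cells. SCG2 and SCG3 stayed under 10 on every array. These markers of a neuroendocrine granule were thus at low intensities on all 4 arrays. PCSK1N, the precursor of an inhibitor of the PCSK1 product, had 159 and 188 in 320IWR cells and 196 and 257 in COLO-320DM cells (log2 fold change -0.37, limma adjusted p = 0.672). Of the 6 genes 1 was lower and 2 were higher without overlap, beside 17.5% and 21% of all genes, and none passed the test.

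Among 34 prohormones and neuropeptide precursors, 1 was lower and 6 were higher without overlap, beside 17.5% and 21% of all genes. The other 27 overlapped between the lines, and 27 of the 34 had an intensity under 64 on every array. ADM, the precursor of adrenomedullin, a peptide that PAM amidates, had intensities of 60.3 and 67.7 in 320IWR cells and of 28.7 and 31.2 in COLO-320DM cells. This log2 fold change of 1.09 (standard error 0.13) did not pass limma's threshold (adjusted p = 0.0787). NUCB2, the nesfatin precursor, had 1001 and 719 in 320IWR cells and 1782 and 975 in COLO-320DM cells, and its arrays overlapped. Of 11 genes whose products can carry an N-terminal pyroglutamate, 1 was lower and 1 higher without overlap, beside the same shares, and 9 overlapped. APP, whose amyloid-β fragments QPCT can cyclize, had a log2 fold change of 0.57 in its brightest probe set (limma adjusted p = 0.208) and 0.55 and 0.18 in the others. APLN, the apelin precursor, had -0.31 and 0.38 in its probe sets, so its direction was not settled.

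Of 32 genes of granule biogenesis and regulated exocytosis, 3 were lower and 10 higher without overlap, beside 17.5% and 21% of all genes. None of the 32 passed the test in the full fit. CADPS2, which primes dense-core granules for release, had intensities of 478 and 363 in 320IWR cells and of 194 and 159 in COLO-320DM cells (log2 fold change 1.25, standard error 0.20, limma adjusted p = 0.126). RAB3B, a GTPase on secretory vesicles, had 40.2 and 44.9 in 320IWR cells and 66.2 and 81.4 in COLO-320DM cells (log2 fold change -0.79, limma adjusted p = 0.194), and its other 4 probe sets had log2 fold changes between -1.08 and -0.21. Of 14 neuroendocrine transcription factors, MNX1 had 296 and 230 in 320IWR cells and 69.9 and 89.9 in COLO-320DM cells (log2 fold change 1.72, limma adjusted p = 0.0753). RFX6 followed at 0.50 (limma adjusted p = 0.721), and the other 12 lay between -0.09 and 0.39.

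**Figure D3:**
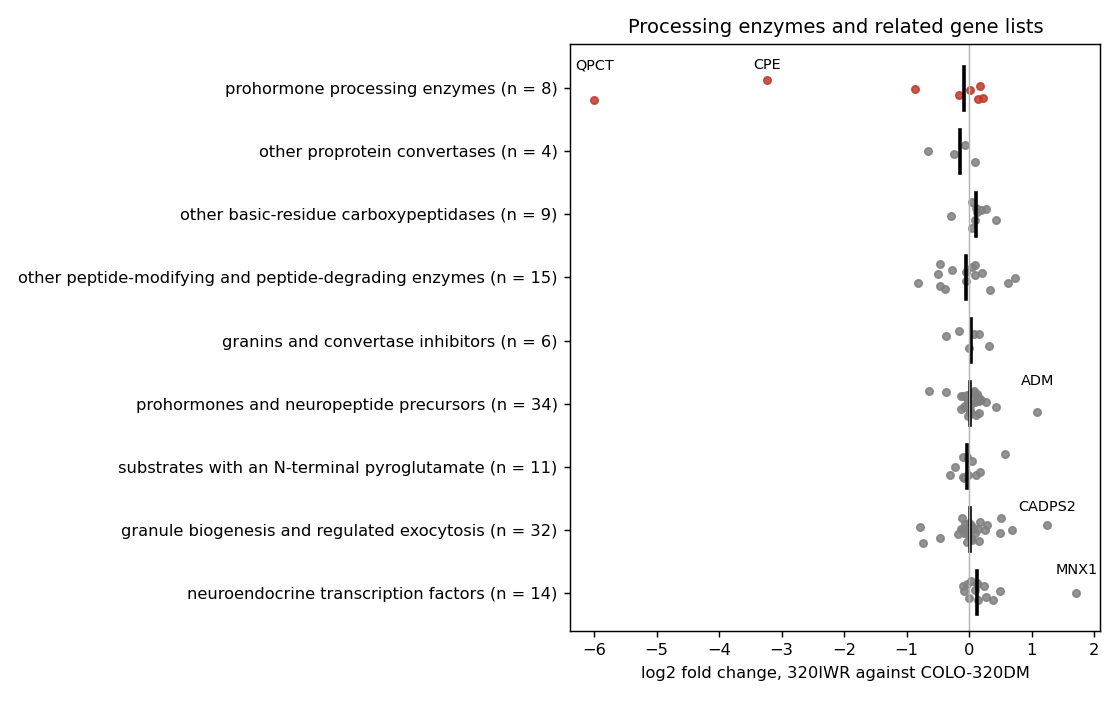
Log2 fold change, 320IWR against COLO-320DM, of the prohormone processing enzymes (red) and of 8 lists of related genes (grey), 1 point per gene by its brightest probe set, with a black bar at the median of each list. Genes beyond 1 in either direction are named, and QPCT and CPE lie apart on the left while no gene of the related lists lies below -0.82.

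Over the 4 arrays, the genes most like QPCT were found by the Euclidean distance between log2 profiles, each centred on its own mean. They were the chemokine receptor gene ACKR3 (distance 1.22), the elongation factor gene TCEA3 (1.49), the cathepsin gene CTSZ (1.57), ENPP2, whose product makes lysophosphatidic acid (1.60), and the glutathione peroxidase gene GPX3 (1.67). The genes most like CPE lay nearer. They were PERP, a desmosome-associated gene (distance 0.24), the zinc finger gene ZNF595 (0.29), TUSC1 (0.29), SERPIND1, which encodes heparin cofactor II (0.32), and the tight junction gene CLDN11 (0.37). PERP had 68.2 and 78.2 in 320IWR cells and 632 and 639 in COLO-320DM cells, and TUSC1 had 101 and 126 in 320IWR cells and 1136 and 1120 in COLO-320DM cells. With so few arrays this likeness reflects mainly the size of the difference between the lines, and other probe sets did not always share it. A second PERP probe set was at -3.26 on the log2 scale, while a second CLDN11 probe set was at -0.54, and 3 further PERP probe sets lay between -0.17 and 0.03. Among the genes like QPCT, second probe sets of ENPP2 and GPX3 were at -3.39 and -3.09. Those of TCEA3 and CTSZ were at -0.65 and -0.12, and the other ACKR3 probe sets were at -1.50 and 0.06.

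None of the genes measured next to QPCT and CPE on their chromosomes had a log2 fold change below -0.61 in its brightest probe set. On chromosome 2, the nearest measured genes on one side of QPCT were PRKD3 (2098 and 2151 in 320IWR cells, 1934 and 2333 in COLO-320DM cells), NDUFAF7 and CEBPZ, the last 2 with log2 fold changes of 0.18 and 0.40. On the other side, CDC42EP3, an effector of the GTPase CDC42, had intensities of 652 and 572 in 320IWR cells and of 942 and 919 in COLO-320DM cells (log2 fold change -0.61, limma adjusted p = 0.214). All 4 of its probe sets had negative log2 fold changes, between -1.12 and -0.59. Beyond it, RMDN2 had 128 and 126 in 320IWR cells and 129 and 126 in COLO-320DM cells, and CYP1B1 had 22.8 and 43.1 in 320IWR cells and 23.4 and 42.4 in COLO-320DM cells, so both overlapped. On chromosome 4, GK3 next but one to CPE had -0.60 in its only probe set (suffix _x_at, limma adjusted p = 0.269). KLHL2, MSMO1, TLL1, SPOCK3 and ANXA10 had values between -0.16 and 0.32 in their brightest probe sets, the last 3 of them at intensities under 12 on every array. None of these 12 neighbours was called by limma.

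**Figure D4:**
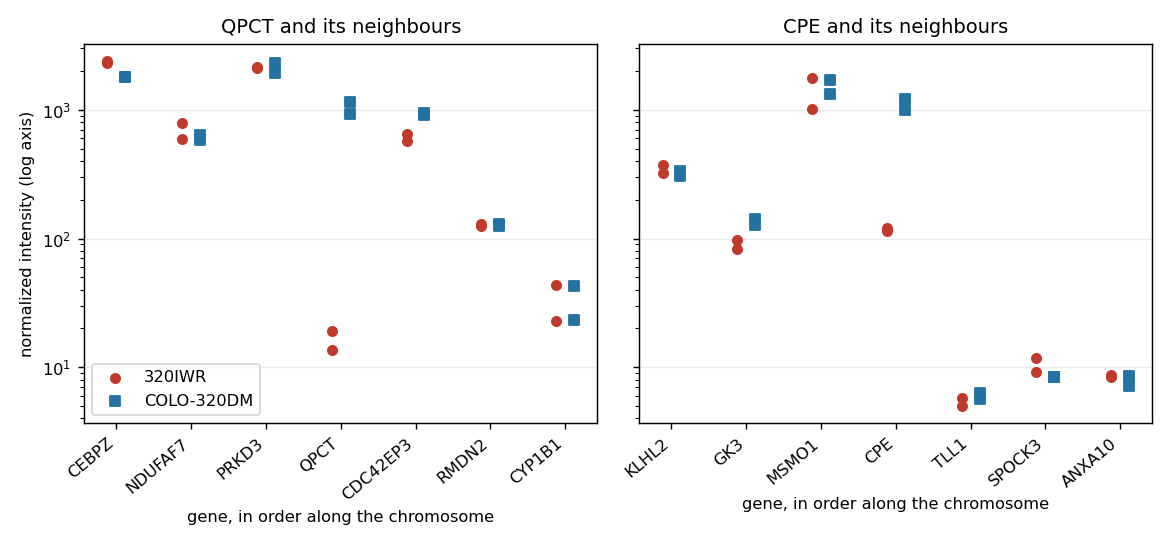
Normalized intensity (log axis) on each array of QPCT (left) and CPE (right) and of the 3 nearest measured protein-coding genes on each side, in order along the chromosome, with 320IWR as red circles and COLO-320DM as blue squares. The lines are far apart at QPCT and CPE and overlap or lie close together at the 12 neighbours.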

How the data were processed

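The deposited values are probe set intensities on a linear scale, which the authors made with RMA, per the submitters' processing notes (no version given); the methods name GeneSpring GX for the normalization. Log2 was taken with a floor of 1, which no value reached. After 62 control probe sets were left out, 54613 were fitted together with limma 3.58.1 in R 4.3.3 (lmFit and eBayes), with a single term for the line and every probe set kept however dim. Each array was grouped by its label. Calls used a Benjamini-Hochberg adjusted p under 0.05 over all probe sets and a 2-fold limit. The prior had 2.78 degrees of freedom and the residual 2, so precision is limited by how few arrays there are. Scanner output and detection calls were not used here. Genes were named only from the 41091 probe sets with 1 symbol; 1801 had several and 11721 none. Upstream sequences and gene order came from RefSeq tables of GRCh38.p14. The code of the fit was also run on simulated arrays with independent scatter. Same-numbered arrays of the real data deviated together, so that run is no evidence for the calls.

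The members, the gene lists and the tests were chosen with earlier results of these data known. Text names every member, the called genes of each related list or else its 2 largest differences, cell type markers as counts and ranges, the 5 genes most like QPCT and CPE, and their 3 neighbours on each side; in some lists further genes (FURIN, CHGB, SCG2, SCG3, CDX2, EPCAM, KRT8, KRT18, KRT20 and COL3A1) were added after their values were seen. The fit was repeated with a block for the replicate number, without each array in turn, after cyclic loess, after setting the array medians equal, without dim probe sets (those whose mean log2 value was under 6 in both lines), with a trended robust prior, with no fold limit, with an adjusted p under 0.01, and with other choices of the probe set of a gene.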

Additional observations from a re-analysis of the deposited data

How the results depend on the processing

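QPCT and CPE were chosen by their differences on these arrays, so the repeat of their calls under other settings is no support for them. The count of called probe sets among these enzymes was 3 in the full fit and under cyclic loess, equal array medians, the filter on dim probe sets, a trended robust prior, the replicate block, no fold limit, an adjusted p under 0.01, and without either COLO-320DM array. With each array left out in turn, the count ranged from 0 to 3 for these enzymes and from 0 to 63 over all probe sets, where the full fit called 202. An adjusted p under 0.01 left 43 probe sets. Labels give the arrays shared replicate numbers without saying what a number stands for. With the replicate number as a block (replicate block), limma called 576 probe sets, and same-numbered arrays deviated together from their lines' means (Pearson's r = 0.661 across probe sets). Of the related genes, limma called 2 higher under the replicate block (ADM, adjusted p = 0.0403, and CADPS2, adjusted p = 0.0362), against 0 in the full fit. In the limma fit over genes with averaged probe sets, 2 were called higher (ADM, adjusted p = 0.0429, and MNX1, adjusted p = 0.0453). ADM and MNX1 have 1 probe set each, so their log2 fold changes were unchanged there, while p was adjusted over genes. For ADM the adjusted p by its brightest probe set was otherwise between 0.0779 and 0.46. Why the replicate block changed the calls was not tested. The log2 fold change over the alternatives ranged from -6.25 to -5.74 for QPCT, from -3.52 to -3.08 for CPE, from -0.98 to -0.72 for PAM and from 0.14 to 0.23 for CPD. For QPCTL, PCSK5, PCSK6 and SCG5 the sign changed in at least 1 alternative, with values between -0.37 and 0.53. No detection calls were used here, so how far dim values lie above background is unknown.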
